A study of Ovis aries with 6 samples.

Results

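Transcription factors and coregulators of skin were followed through 7 genes, measured by 9 of the 15008 probes on a sheep array, on which 476 gene symbols are named through RefSeq accessions. The genes are PNRC1, CREBZF, LOC494431 (the sheep entry for YY1), TFAP2A, ETS2, MYC and CLOCK. Single probes stand for PNRC1, CREBZF, LOC494431, ETS2 and CLOCK, and TFAP2A and MYC have 2 probes each. They were taken by probe identifier, and for MYC by every probe that carries the RefSeq mRNA of the gene. The breed difference on these same arrays was known when the genes were chosen, so their own breed differences are given as a description without a test.

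RNA came from full-thickness skin of the body side, epidermis and dermis together, about 1 cm2 per animal, taken in the anagen stage when follicles grow wool. There were 3 Aohan fine wool sheep, a fine-wooled breed, and 3 small tail Han sheep, a coarse-wooled breed. All were 12 months old, and each breed was represented by 1 ram and 2 ewes, which are not told apart in the labels. No animal was treated. Each RNA was hybridised to 1 Agilent array with a single dye. The sheep of a breed shared 1 sire, so breed and sire family cannot be told apart, and each breed had its own scanning session, so that neither can scanning be told apart from breed. The signals are those of a piece of whole skin, in which fewer cells of a type and less RNA per cell cannot be told apart.

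Transcription factors bind short DNA motifs and recruit coregulators, proteins that mostly do not bind DNA themselves but turn transcription up or down through chromatin, the polymerase machinery or the factor's own activity. Skin relies on such factors to keep dividing basal keratinocytes, differentiating epidermis and the cyclic growth of the follicle apart. The genes described here belong to different branches of this machinery, from a zinc finger protein to a core clock factor. Levels are given as log2 signal relative to the 75th percentile of the array's own probes, so a value of 0 means the signal of that percentile and a difference of 1 means a doubling. Levels of different probes are not comparable, because probes differ in how well they bind their target.

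In processed intensity, the 75th percentile stood at 1103, 2048 and 1131 on Aohan arrays 1 to 3, against 2309, 1837 and 1747 on small tail Han arrays 1 to 3. Between 10774 and 13418 probes were well above background on the Aohan arrays and between 11055 and 12965 on the small tail Han arrays. The median coefficient of variation of probes spotted 5 times was 11.2% to 19.6% on the Aohan arrays and 7.77% to 8.91% on the small tail Han arrays. The tissue label was checked against its markers. The wool follicle keratins KRT25, KRT27 and KRT35, looked up after the data were seen, and the fibroblast gene DCN were well above background on all 6 arrays. None of the 6 listed keratinocyte markers and none of the 11 listed wool follicle markers is named on the array. SCD, the only listed sebaceous gland marker on the array, was well above background on 0 arrays.

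In outline, PNRC1, LOC494431 and 1 of the 2 TFAP2A probes were higher in Aohan skin, CREBZF and CLOCK were lower in Aohan skin, and the ranges of the breeds overlapped for the ETS2 probe, the other TFAP2A probe and 1 of the 2 MYC probes. The CLOCK probe was dim, being well above background in 1 of 3 Aohan sheep and 3 of 3 small tail Han sheep. In the limma fit over all 12481 probes tested, 15.2% passed an adjusted p of 0.05, 7.57% higher and 7.6% lower in Aohan skin. Of the 9 probes, all of which were tested, 5 passed, 3 higher and 2 lower. The breeds did not overlap on 6 of the 9 probes, and on 34.2% of all tested probes. CLOCK is in both counts, and reached the test through the small tail Han arrays, where its signal was higher. The genes were chosen on this contrast, so nothing is read from either count.

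**Figure D1:**
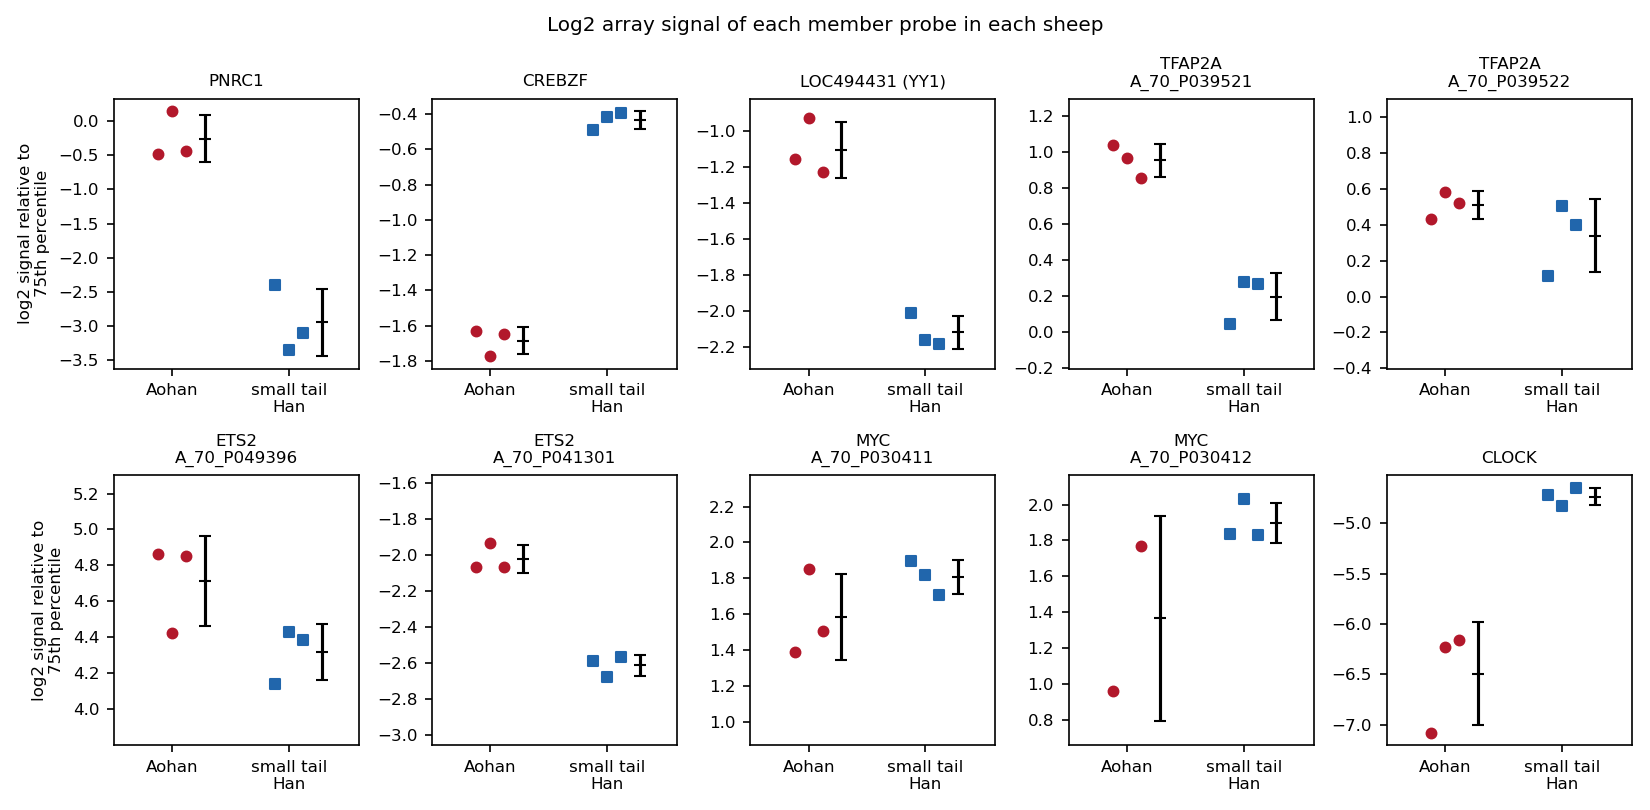
Log2 signal relative to the array's 75th percentile (vertical axis) in each Aohan sheep (red circles) and each small tail Han sheep (blue squares), with the mean and SD of each breed in black. One panel is 1 probe, the panels have different vertical axes, and the second ETS2 probe, A_70_P041301, lies outside the rule. PNRC1 in Aohan sheep lies between -0.48 and 0.15, above every small tail Han sheep, while for TFAP2A A_70_P039522 the values of the breeds mix.

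PNRC1 is a proline-rich coactivator that binds nuclear receptors and raises their activity. Its probe A_70_P048821 read -0.48, 0.15 and -0.43 in Aohan sheep 1 to 3, against -2.39, -3.35 and -3.10 in small tail Han sheep 1 to 3. Every Aohan sheep was higher than every small tail Han sheep, and the nearest pair of animals was 1.91 apart. The means were -0.26 ± 0.35 in Aohan skin and -2.95 ± 0.50 in small tail Han skin (SD, n = 3 each), a log2 difference of 2.69 (SE 0.27), or 6.46-fold higher in Aohan skin. Every SE here and below comes from the limma fit, which draws each probe's variance towards that of probes of like intensity. It therefore does not follow from the SDs of the animals alone. In unscaled processed intensity the probe gave 792, 2267 and 837 in Aohan sheep, against 440, 180 and 204 in small tail Han sheep. The breeds were also apart before any scaling, with an unscaled log2 difference of 2.18.

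CREBZF, a bZIP protein that acts as a corepressor of nuclear receptors and binds the host cell factor HCFC1, showed the opposite pattern. Its probe A_70_P002046 read -1.63, -1.77 and -1.65 in Aohan sheep, against -0.49, -0.42 and -0.39 in small tail Han sheep. The breeds did not overlap, and the animals within a breed lay close together. The means were -1.69 ± 0.08 in Aohan skin and -0.43 ± 0.05 in small tail Han skin (SD, n = 3 each), a log2 difference of -1.25 (SE 0.14), so that the signal in Aohan skin was 0.42 times that in small tail Han skin. The unscaled intensity was 356, 599 and 361 in Aohan sheep, against 1644, 1377 and 1329 in small tail Han sheep, also without overlap.

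LOC494431 encodes YY1, a zinc finger factor that activates or represses its targets according to the partners it meets, among them Polycomb proteins. Probe A_70_P003261 read -1.16, -0.93 and -1.23 in Aohan sheep, against -2.01, -2.16 and -2.19 in small tail Han sheep. The ranges were 0.79 apart and did not overlap. The difference was 1.02 (SE 0.16), or 2.02-fold higher in Aohan skin. Before scaling the intensities were 495, 1075 and 483 in Aohan sheep, against 572, 410 and 384 in small tail Han sheep. Those unscaled ranges overlap, and the unscaled log2 difference was 0.50.

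TFAP2A is AP-2 alpha, a factor of the early ectoderm and neural crest that also drives genes of the epidermis. Both of its probes carry the same RefSeq mRNA, and they gave different pictures. Probe A_70_P039521 read 1.04, 0.96 and 0.85 in Aohan sheep, against 0.04, 0.27 and 0.26 in small tail Han sheep. Here the breeds did not overlap, with a difference of 0.76 (SE 0.14), or 1.69-fold. Probe A_70_P039522 read 0.43, 0.58 and 0.52 in Aohan sheep, against 0.11, 0.50 and 0.40 in small tail Han sheep. On this probe small tail Han sheep 2 lay within the Aohan range, and the difference was 0.17 (SE 0.15). The log2 difference between both probes can be taken within each array, where the scaling cancels. It was 0.61, 0.38 and 0.33 in Aohan sheep, against -0.07, -0.23 and -0.14 in small tail Han sheep. The size of that quantity carries the unequal binding of the probes, but the gap of 0.59 between the breed means does not depend on the scaling. Which of the probes better follows the TFAP2A mRNA was not tested.

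ETS2 is an ETS-domain factor switched on by phosphorylation in the MAP kinase pathway, and mice that lack Ets2 activity outside the placenta have curly whiskers and wavy hair. Probe A_70_P049396 read 4.86, 4.42 and 4.85 in Aohan sheep, against 4.14, 4.43 and 4.39 in small tail Han sheep. Aohan sheep 2 lay at the level of small tail Han sheep 2 and 3, so the breeds overlapped, and the difference was 0.39 (SE 0.20). The signal of this bright probe was scaled up from the scan at low detector gain on all 6 arrays. A second probe, A_70_P041301, carries the accession of an ETS2 mRNA on the array, while A_70_P049396 carries that of an expressed sequence tag. The study's supplement instead gives A_70_P049396 the ETS2 mRNA, and which assignment is right was not tested. The second probe was found here through the study's table of differing probes, so it was selected on these arrays, and it lies outside the rule. It read -2.07, -1.93 and -2.07 in Aohan sheep, against -2.59, -2.68 and -2.57 in small tail Han sheep. That probe did not overlap between the breeds, with a difference of 0.59 (SE 0.15).

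MYC, the helix-loop-helix factor that pairs with MAX and drives cell growth and division, was measured by 2 probes on its RefSeq mRNA. Probe A_70_P030411 read 1.39, 1.85 and 1.51 in Aohan sheep, against 1.90, 1.82 and 1.71 in small tail Han sheep. The breeds overlapped, and the difference was -0.22 (SE 0.17). Probe A_70_P030412 read 0.96 and 1.77 in Aohan sheep 1 and 2, against 1.84, 2.03 and 1.83 in small tail Han sheep, and the spot of Aohan sheep 3 was dropped because the scanner software had marked it as an outlier. With 5 arrays the ranges were 0.06 apart, and the difference was -0.53 (SE 0.25). On both probes Aohan sheep 1 was the lowest animal, and Aohan sheep 2 was near the small tail Han values.

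CLOCK pairs with BMAL1 on E-box motifs and drives the daily cycle of the PER, CRY and DBP genes. The probe A_70_P002771 was dim. It was well above background in 1 of 3 Aohan sheep and in 3 of 3 small tail Han sheep, so the small tail Han arrays alone carried it past the filter of 3 arrays. It read -7.08, -6.23 and -6.16 in Aohan sheep, against -4.72, -4.83 and -4.65 in small tail Han sheep. The breeds did not overlap, with a difference of -1.76 (SE 0.35). The processed intensities behind these values were 8.16, 27.3 and 15.8 in Aohan sheep, against 87.6, 64.7 and 69.5 in small tail Han sheep, and with normexp background correction, which models background and signal together, the difference was -0.60. The hour at which each sheep was sampled is not given in the sources used here.

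Aohan sheep 2, whose array was the brightest of its breed, was the highest Aohan animal on the PNRC1 and LOC494431 probes, on TFAP2A A_70_P039522 and on both MYC probes, of which A_70_P030412 had only 2 Aohan values. It was the lowest Aohan animal on the CREBZF and ETS2 A_70_P049396 probes. Among small tail Han sheep, replicate 1, whose array was also the brightest of its breed, was the highest animal for PNRC1, LOC494431 and MYC A_70_P030411. It was the lowest for CREBZF, for both TFAP2A probes and for ETS2 A_70_P049396. Over the tested probes with complete values, the deviations of Aohan sheep 2 and small tail Han sheep 1 from their breed means correlated at 0.47. This was the highest value for a pair of sheep from the 2 breeds, and the other pairs lay between -0.37 and 0.28. Deviations from a mean of 3 animals are linked to each other, so these values are not independent.

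The size of each difference also rested on the scaling between arrays. Without any scaling the median difference of all probes was -0.49, against 0.02 with the 75th percentile. Set beside that median, the unscaled differences of TFAP2A A_70_P039522, at -0.34, and ETS2 A_70_P049396, at -0.12, were negative and yet above the median probe.

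**Figure D2:**
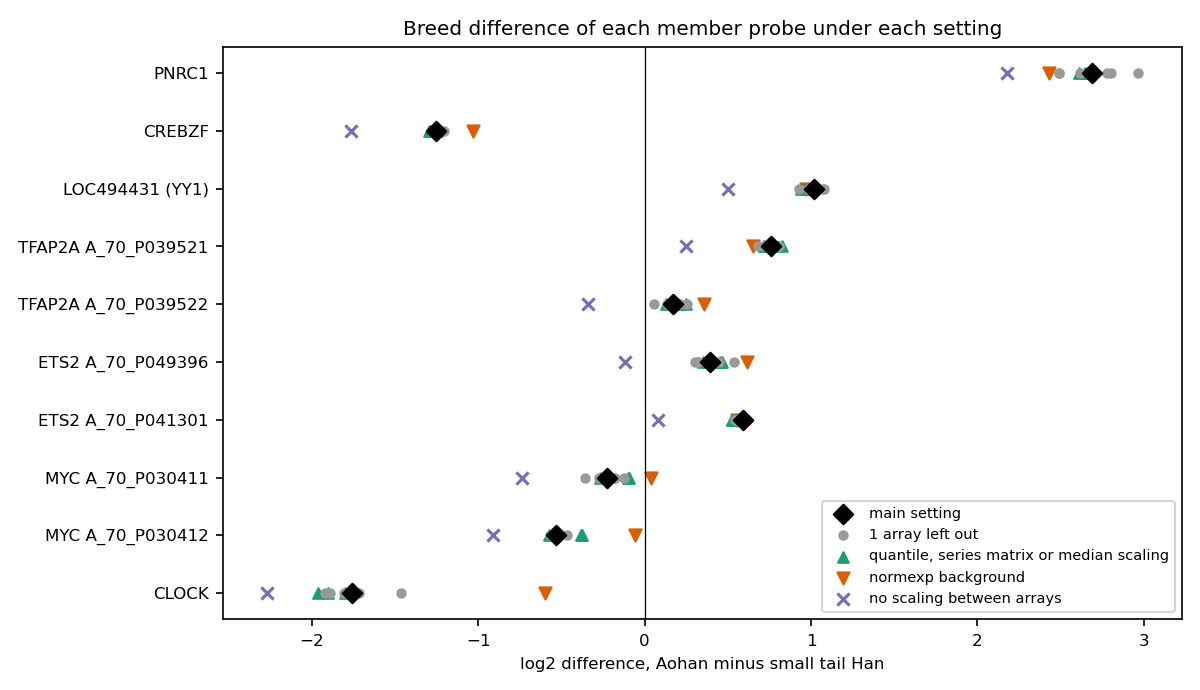
Log2 difference between the breeds, Aohan minus small tail Han (horizontal axis), for each probe (rows) under the main setting (black diamonds), with 1 array left out (grey circles), under quantile, series matrix or median scaling (green triangles), with normexp background correction (orange triangles) and with no scaling (purple crosses). PNRC1 ranges from 2.18 to 2.97, CREBZF from -1.76 to -1.03 and CLOCK from -2.27 to -0.60, while TFAP2A A_70_P039522, ETS2 A_70_P049396 and MYC A_70_P030411 have points on both sides of 0.

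The probes of CEBPB, SNW1, WWTR1 and EID1 were also named here through the study's table of differing probes, so they too were selected on these arrays and are described without a test. CEBPB, a bZIP factor of inflammation and differentiation, read -2.75, -1.90 and -2.61 in Aohan sheep, against -4.18, -4.81 and -4.41 in small tail Han sheep, a difference of 2.05. SNW1, a coactivator of the vitamin D receptor that is also a splicing factor, differed by 1.40. In neither gene did the breeds overlap. With normexp correction the differences were smaller, 1.16 for CEBPB and 0.74 for SNW1. WWTR1, the Hippo pathway coactivator TAZ, differed by 0.51 without overlap, and EID1, an inhibitor of the acetyltransferase EP300, differed by 0.24 with overlap.

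Other transcription regulators were taken from lists of families and partners of these genes, written with earlier results of these data known. Their calls are therefore no independent test. Of 290 listed genes, 22 are named on the array through a RefSeq accession and 18 were tested. Among these 0 were higher and 2 were lower in Aohan skin by limma with Benjamini-Hochberg adjustment over all probes, and the same 2 were the only ones at an unadjusted p under 0.05. Over all tested probes the share past the threshold was 15.2%, with 7.57% higher and 7.6% lower. The methods' t-test called 0 after adjustment and 4 before it. The median difference of the 18 was 0.05, against 0.02 for all probes tested. The lists of AP-2 and epidermal regulators, of follicle regulators and of the ETS family had 0 members named on the array.

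The circadian list gave DBP, a bZIP factor whose gene is a direct target of CLOCK and BMAL1. DBP read -0.43, -0.11 and -0.19 in Aohan sheep, against 0.37, 0.51 and 0.61 in small tail Han sheep. It was lower in Aohan skin without overlap, by a log2 difference of -0.74 (SE 0.15, limma adjusted p = 0.0135). The call was lost without small tail Han replicate 2 or 3, with differences of -0.73 and -0.69, and by the methods' t-test (adjusted p = 0.0546), and the highest adjusted p over the alternatives was 0.0686. The other 3 clock genes tested did not pass. CRY1, a repressor of CLOCK and BMAL1, differed by -0.05 (SE 0.21). BHLHE40, another repressor of the clock, differed by 1.02 (SE 0.59), and TIMELESS by 0.30 (SE 0.31).

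Among nuclear receptors, to which PNRC1 and CREBZF bind, ESR2, the oestrogen receptor beta, read -3.23, -2.89 and -2.76 in Aohan sheep, against -2.49, -2.12 and -2.23 in small tail Han sheep. It was lower in Aohan skin by -0.68 (SE 0.20, limma adjusted p = 0.048). That call was lost in 10 of 16 alternatives, among them leaving out Aohan replicate 1, 2 or 3 or small tail Han replicate 2 or 3, with differences between -0.78 and -0.55 and adjusted p up to 0.197 over the alternatives. PPARG, the receptor that drives fat cell and sebocyte differentiation, differed by 0.04 (SE 0.23). NR3C1 and THRA are on the array but were not well above background often enough to be tested.

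The remaining families did not pass in either direction. The bZIP factors ATF4, of the stress response, and CREM, of cyclic AMP signalling, differed by 0.27 (SE 0.16) and 0.32 (SE 0.27). DNMT1, the maintenance DNA methyltransferase, differed by -0.01 (SE 0.18). The signal-dependent factors EGR1, STAT5A and IRF1 differed by 0.16 (SE 0.19), 0.07 (SE 0.19) and 0.05 (SE 0.32). Of the lineage factors, HAND1 differed by -0.58 (SE 0.27), MYOD1 by -0.55 (SE 0.29) and MYOG by 0.20 (SE 0.21). Second probes of HAND1, STAT5A and CREM, with lower signal, differed by -0.15, -0.41 and 0.06, and did not pass either.

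A further 13 regulators were listed once the gene names on the array were known, and all were tested. Earlier results of these data were also known by then, so their calls are no independent test. Of these 3 were higher and 1 was lower in Aohan skin, beside 7.57% higher and 7.6% lower of all tested probes. YEATS4, a reader of histone acetylation in chromatin remodelling complexes, was higher by 1.55 (SE 0.25, limma adjusted p = 0.00491). PSIP1, a chromatin-bound coactivator, was higher by 1.07 (SE 0.20, limma adjusted p = 0.01004), and ASF1A, a histone chaperone, by 0.85 (SE 0.18, limma adjusted p = 0.0165). IRF2, which represses interferon-induced genes, was lower by -0.79 (SE 0.18, limma adjusted p = 0.0194). In each of these 4 genes the breeds did not overlap. The call of ASF1A was lost without small tail Han replicate 3, at a difference of 0.85, and that of IRF2 without Aohan replicate 3 or small tail Han replicate 2 or 3, at differences between -0.80 and -0.70. By the methods' t-test YEATS4 (adjusted p = 0.0613), PSIP1 (adjusted p = 0.0706) and ASF1A (adjusted p = 0.0766) did not pass. With normexp correction PSIP1 differed by 0.54 and IRF2 by -0.59, and neither passed.

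**Figure D3:**
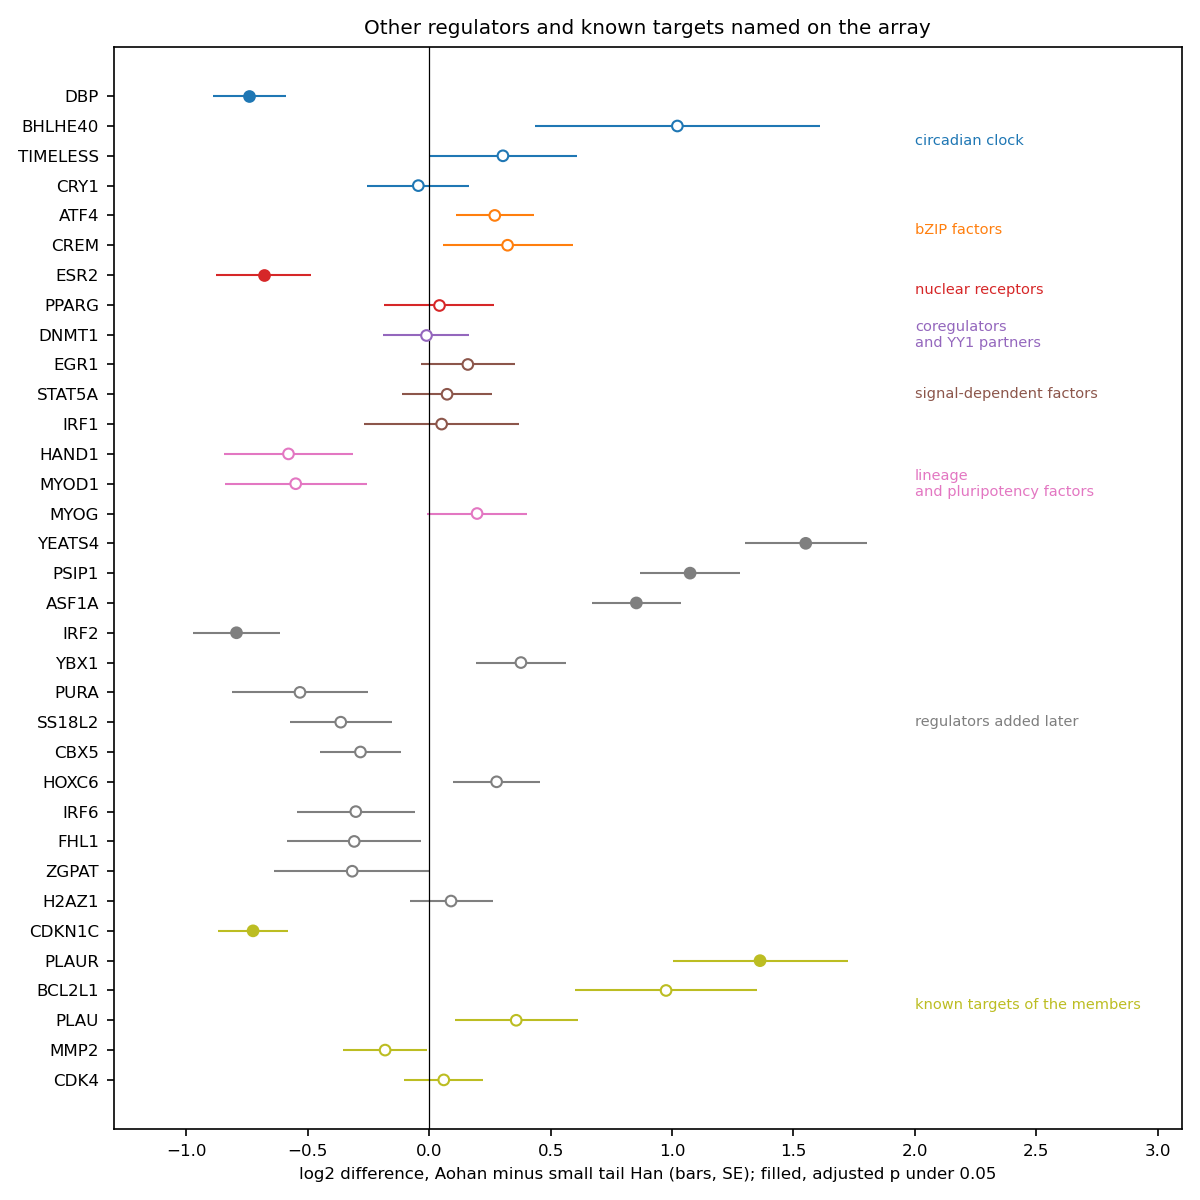
Log2 difference between the breeds, Aohan minus small tail Han (horizontal axis; bars, SE), for the other regulators and known targets reported here, 1 row a gene, coloured by list. Filled points passed an adjusted p of 0.05: DBP, ESR2, IRF2 and CDKN1C at negative values, YEATS4, PSIP1, ASF1A and PLAUR at positive ones.

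Of 25 genes listed as known targets of these factors or of their families, 6 are on the array and were tested, and 1 was higher and 1 lower in Aohan skin, beside 7.57% higher and 7.6% lower of all tested probes. Their median difference was 0.21, against 0.02 for all probes. PLAUR, the urokinase receptor, read -4.12, -2.96 and -3.23 in Aohan sheep, against -4.62, -5.33 and -4.44 in small tail Han sheep. It was higher by 1.36 (SE 0.36, limma adjusted p = 0.0364), though well above background on only 2 of 3 arrays of each breed. The call was lost without Aohan replicate 2 or 3 or small tail Han replicate 2 or 3, at differences between 1.09 and 1.54, with normexp correction, at 0.55, and by the methods' t-test (adjusted p = 0.167). CDKN1C, an inhibitor of cyclin-dependent kinases, read -0.27, -0.02 and -0.11 in Aohan sheep, against 0.54, 0.71 and 0.53 in small tail Han sheep. It was lower in Aohan skin by -0.73 (SE 0.14, limma adjusted p = 0.0115), a call that was lost without small tail Han replicate 2, at -0.67. The study had already named CDKN1C as differing on these arrays, and the list was written with earlier results of these data known. The calls of PLAUR and CDKN1C are therefore no independent test. BCL2L1, which blocks cell death, differed by 0.98 (SE 0.37), and the protease urokinase, PLAU, by 0.36 (SE 0.25). The gelatinase MMP2 differed by -0.18 (SE 0.17) and the cell cycle kinase CDK4 by 0.06 (SE 0.16). None of these genes passed. Second probes of BCL2L1 and MMP2 differed by 0.49 and -0.18 and did not pass either.

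Among the 421 other named genes, those whose log2 signal ran most like each probe over the 6 arrays were listed by Pearson's r, as a description over arrays that share their scaling and their breeds. LTF, which encodes lactoferrin, came first for both PNRC1 (r = 0.999) and LOC494431 (r = 0.995), with SLC5A1, a sodium and glucose transporter (r = 0.996), and LOC443313 (r = 0.993) after it. CYP1A1, a cytochrome P450, and SLC2A5, a fructose transporter, ran most like CREBZF (r = 0.998 and 0.991). For CLOCK these were PYGB, a glycogen phosphorylase, and POMC, the precursor of melanocortins (r = 0.992 and 0.989). SNRPA and ACLY ran most like TFAP2A A_70_P039521 (r = 0.984 and 0.982), against SLAMF1 and FGF2 for TFAP2A A_70_P039522 (r = 0.932 and 0.91). MYOG and PRNP followed ETS2 A_70_P049396 (r = 0.986 and 0.976). SLC12A4 and DTNBP1 followed MYC A_70_P030411 (r = 0.971 and 0.969), and CBX5 and CRHR1 followed MYC A_70_P030412 over its 5 arrays (r = 0.99 and 0.972).

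Of the markers of other skin cells tested, a pair of T cell genes passed. Of 6 leukocyte markers 4 are on the array, and CD3E and CD3D, of the CD3 part of the T cell receptor complex, were higher in Aohan skin by 1.11 (limma adjusted p = 0.0135) and 0.92 (limma adjusted p = 0.0362). CD14 differed by 0.19 and CD4 was well above background on 1 array. The summed linear level of the leukocyte markers, in units of the array's 75th percentile, was 6.78 to 8.47 in Aohan sheep and 2.97 to 5.05 in small tail Han sheep. CD3E and CD3D made up 91.8% to 95.7% of that sum in Aohan sheep and 85% to 93.5% in small tail Han sheep, so it mostly repeats these 2 genes. The sum and the shares carry the unequal binding of the probes, so they are not shares of mRNA. TYR, the only melanocyte marker of 6 on the array, differed by -0.68 (limma adjusted p = 0.0511), with a level of 0.109 to 0.162 in Aohan sheep and 0.198 to 0.237 in small tail Han sheep. DCN for fibroblasts and PLIN1 for adipocytes differed by -0.08 and -0.20 and did not pass. The part of these cells in the differences of the regulators was not tested.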

How the data were processed

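RNA of 6 skin samples was measured on 1-colour arrays. The deposited scanner files hold background-subtracted Cy3 intensity per spot, for which the file headers name Agilent Feature Extraction 10.5.1.1, and the authors had not normalized them between arrays. The deposited series matrix gives log2 values, normalized by the authors between arrays by a method not given in the sources used here, each column having a median of 8.31.

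Control spots and spots marked as outliers were dropped, log2 was taken, spots of a probe were averaged and the 75th percentile of all probes other than controls was subtracted per array. The 12481 probes tested were well above background on 3 or more of the 6 arrays and had 2 or more values in each breed. The Aohan minus small tail Han difference was fitted in R 4.3.3 with limma 3.58.1 (2-sided, intensity trend, Benjamini-Hochberg adjustment over all tested probes, threshold 0.05). The fit was tested on simulated data, whose noise model was revised after the first run recovered too few changed probes. The number of arrays limits the precision. The p-values rest on the spread between 3 animals of 1 sire per breed. In the limma fit each probe's variance is also drawn towards that of probes of like intensity, which enters its p-values and each SE.

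Names came from RefSeq accessions on the array through assembly ARS-UI_Ramb_v3.0, for 734 of 758 such probes. Of the 9 probes, 5 were named so and the other 4 as the rule gives them. For genes with several probes, that with the highest mean log2 signal was used in the lists. Named are the 7 genes with every probe, each listed gene past the threshold, up to 4 genes of smallest p per list, and the 2 genes most like each probe. The results of a few genes that this rule picks are not reported here. The genes and lists were chosen with earlier results of these data known. Alternatives were quantile normalization, normexp (offset 50, on spot medians since no spot means were used here), series matrix values, other filters, no trend, a replicate block, the methods' t-test, each array left out and, chosen after seeing the data, array median scaling and no scaling. Figures were drawn with matplotlib in Python.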

Additional observations from a re-analysis of the deposited data

How the results depend on the processing

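Over all probes 1893 passed, and 767 to 2239 with 1 array left out, the lowest counts being 767 and 942 when small tail Han replicate 2 or 3 was dropped and 1082 when Aohan replicate 3 was. The methods' t-test gave 712 probes after adjustment and 3234 before it. Replicate numbers did not pair the arrays (correlations of same-numbered deviations -0.22, -0.37 and 0.28), and a fit with the replicate number as a block gave 1234 probes, with the same 5 of the 9 probes and 1 of the other regulators. Under that block ASF1A (limma adjusted p = 0.0512) and IRF2 (limma adjusted p = 0.0671) did not pass. The count of the 9 probes past the threshold rests on genes chosen on this contrast and is no sign of stability. It was 5, also with each single array left out, and 3 without scaling. With normexp it was 4, since CLOCK did not pass, and it was also 4 where all 6 arrays had to be well above background. With quantile normalization and with series matrix values it was 6, since ETS2 A_70_P049396 passed too. Directions turned without scaling for TFAP2A A_70_P039522 (-0.34), ETS2 A_70_P049396 (-0.12), EID1 (-0.27) and WWTR1 (-0.0062), and with normexp for MYC A_70_P030411 (0.0401). The difference of MYC A_70_P030412 shrank from -0.53 to -0.06 with normexp. Of the listed other regulators 2 passed, against 1 with no filter, 1 without the trend, 1 with normexp, 0 by the adjusted and 4 by the unadjusted t-test, and 0 to 2 with 1 array left out. Without scaling the median difference of all probes was -0.49, against 0.02 with it. The cause of the other changes was not tested. CLOCK was too dim to be tested where all 6 arrays had to be well above background.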
